A study of Mus musculus and Homo sapiens with 20 samples.

Results

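The Hoxd cluster is the set of 9 homeobox genes Hoxd1, Hoxd3, Hoxd4, Hoxd8, Hoxd9, Hoxd10, Hoxd11, Hoxd12 and Hoxd13 that lie side by side on mouse chromosome 2. They were taken by their gene symbol in the GENCODE annotation, as 9 of 21938 protein-coding genes in mouse (mm10) and 9 of 20033 in human (hg38, written HOXD). From the first base of Hoxd13 to the last base of Hoxd1 the mouse cluster spans chr2:74668310-74765142, or 96.8 kb, and the human cluster spans chr2:176092721-176190907, or 98.2 kb. In each list of peaks from CUT&Tag, an assay in which an antibody against a histone mark brings a transposase that cuts and tags the DNA nearby, the percent of the cluster, of each gene and of each gene's promoter that lay under peaks was measured, together with the edges of the covered domain. A promoter here means the bases within 1 kb of a gene's GENCODE start, upstream or downstream.

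Hox genes encode transcription factors that set the identity of body segments and limb parts along their axes. Within the cluster they stand in the order in which they are switched on: Hoxd1, Hoxd3 and Hoxd4 act in anterior parts of the embryo, Hoxd8 in the trunk, and Hoxd9 to Hoxd13 in posterior parts, the limbs and the genitalia. In cells that do not use them the genes are held silent by the Polycomb system, in which Polycomb repressive complex 1 places ubiquitin on histone H2A (H2AK119ub) and Polycomb repressive complex 2 trimethylates histone H3 (H3K27me3), and each complex can bind the mark of the other. The cluster is flanked by Evx2, another homeobox gene, and Lnpk, a gene of the endoplasmic reticulum, on the Hoxd13 side, and by Mtx2, a gene of the mitochondrial import machinery, on the Hoxd1 side, with gene deserts that hold limb and trunk enhancers beyond.

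The 20 libraries formed 10 groups of 2. H2AK119ub and H3K27me3 were each profiled in mouse embryonic stem (mES) cells, a wild-type (WT) line and a Tet2 knockout (KO) line grown in serum and LIF with the kinase inhibitors CHIR99021 and PD0325901, and in lineage-negative c-Kit+ haematopoietic stem and progenitor cells (HSPCs) from the bone marrow of WT mice and mice with a germline Tet2 KO, 6 to 8 weeks old. In K562, a line of human leukaemia cells, only H2AK119ub was profiled, after nucleofection of siRNA that targeted MBD6 (siMBD6) or of a control (siControl). TET2 oxidizes methylated cytosine in DNA and RNA, and MBD6 is a partner of the enzyme complex that removes H2AK119ub. The labels do not say whether the 2 mES libraries of a group came from separate cultures or whether the HSPC libraries held cells of 1 mouse or several, so the spread between them may be technical in part.

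The lists held 85121 to 167378 peaks covering 132.1 to 259.9 Mb of the assembled chromosomes. They give positions only, so the depth behind each peak is unknown and a wider covered length cannot be told apart from more reads. In all 20 lists the commonest peak width was 501 bp and the smallest gap between peaks was 499 bp, so a promoter value of 25.04% is a lone peak of minimum width and shorter gaps cannot appear. Promoters of 5 mES markers (Pou5f1, Nanog, Sox2, Zfp42 and Esrrb) held an H3K27me3 peak in 1 to 2 of 5 cases in mES lists and in 4 of 5 in HSPC lists. Of 7 HSPC markers, the Myb and Spi1 promoters were fully covered by H3K27me3 in the 4 mES lists. In HSPC lists they were at 0 to 27.3%. Cd34 was at 87.2% to 99.2% in mES lists and 25.04% to 53.5% in HSPC lists. Runx1 was at 33.1% to 64.9% and 0 to 28.0%. Kit went the other way, at 0 to 44.5% in mES lists and 38.3% to 66.3% in HSPC lists, which overlap. Ptprc had no H3K27me3 peak at its promoter in any of these lists. The promoters of Gata2 and of the mES marker Esrrb were covered in both cell types, at 85.1% to 100%. H2AK119ub peaks lay over markers of the cells' own type and of the other type. A peak lay at 5 of 5 mES markers in each mES list (mean cover 57.5% to 64.4%), against 3 to 4 of 5 in HSPC lists (34.3% to 47.9%). HSPC markers held a peak in 6 of 7 cases in every mES list and every HSPC list. Their mean cover was 62.8% to 70.7% in HSPC lists and 55.96% to 64.9% in mES lists, which overlap. A mark says nothing of whether Tet2 or MBD6 was lost, which was not checked here.

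The sequences that the results below turn on come from mouse, with every CG dinucleotide in capitals. The first set is promoter sequence from RefSeq on GRCm38. Hoxd3 is shown because the GENCODE window that it shares with Hoxd4 differed most in mean cover between HSPC and mES lists, and Hoxd12 and Hoxd10 because theirs differed least. These means pool WT and KO lists. In the window of Hoxd3 and Hoxd4 the H3K27me3 difference lay in the KO mES lists alone, and under H2AK119ub the WT mES lists overlapped the HSPC lists. Hoxd4 is shown at its RefSeq start, a separate site, and Evx2 and Mtx2 as the flanking genes.
Hoxd4, chr2:74721728-74722027, plus strand: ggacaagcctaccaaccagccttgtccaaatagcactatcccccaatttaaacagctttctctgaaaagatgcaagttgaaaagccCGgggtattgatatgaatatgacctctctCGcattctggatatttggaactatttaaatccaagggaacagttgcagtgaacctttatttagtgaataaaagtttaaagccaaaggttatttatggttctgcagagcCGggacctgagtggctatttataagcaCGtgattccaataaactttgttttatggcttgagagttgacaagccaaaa
Hoxd3, chr2:74711743-74712042, plus strand: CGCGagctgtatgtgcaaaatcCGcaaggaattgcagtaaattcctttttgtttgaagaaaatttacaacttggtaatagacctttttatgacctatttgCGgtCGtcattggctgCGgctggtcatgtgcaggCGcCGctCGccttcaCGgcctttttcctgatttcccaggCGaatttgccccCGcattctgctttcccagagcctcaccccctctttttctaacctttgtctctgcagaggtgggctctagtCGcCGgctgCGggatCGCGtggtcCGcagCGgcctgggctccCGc
Hoxd12, chr2:74674763-74675062, plus strand: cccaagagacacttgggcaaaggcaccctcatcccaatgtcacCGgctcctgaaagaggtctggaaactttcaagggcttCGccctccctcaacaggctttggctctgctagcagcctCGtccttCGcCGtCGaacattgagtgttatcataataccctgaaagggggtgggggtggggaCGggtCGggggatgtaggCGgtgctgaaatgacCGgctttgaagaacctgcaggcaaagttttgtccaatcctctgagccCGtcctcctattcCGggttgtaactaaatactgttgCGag
Hoxd10, chr2:74691641-74691940, plus strand: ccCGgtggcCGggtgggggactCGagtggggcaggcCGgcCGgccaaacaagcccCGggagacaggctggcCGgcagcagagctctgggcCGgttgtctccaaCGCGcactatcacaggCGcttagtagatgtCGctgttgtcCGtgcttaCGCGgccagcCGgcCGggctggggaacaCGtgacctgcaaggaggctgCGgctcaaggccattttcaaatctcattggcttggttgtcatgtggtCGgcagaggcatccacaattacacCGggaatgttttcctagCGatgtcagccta
Evx2, chr2:74659508-74659807, minus strand: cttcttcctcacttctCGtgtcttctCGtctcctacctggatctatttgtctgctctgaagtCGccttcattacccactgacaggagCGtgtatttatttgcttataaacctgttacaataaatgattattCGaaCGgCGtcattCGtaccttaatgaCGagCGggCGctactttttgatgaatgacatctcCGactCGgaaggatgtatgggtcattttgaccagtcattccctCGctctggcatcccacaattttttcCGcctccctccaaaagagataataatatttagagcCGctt
Mtx2, chr2:74825562-74825861, plus strand: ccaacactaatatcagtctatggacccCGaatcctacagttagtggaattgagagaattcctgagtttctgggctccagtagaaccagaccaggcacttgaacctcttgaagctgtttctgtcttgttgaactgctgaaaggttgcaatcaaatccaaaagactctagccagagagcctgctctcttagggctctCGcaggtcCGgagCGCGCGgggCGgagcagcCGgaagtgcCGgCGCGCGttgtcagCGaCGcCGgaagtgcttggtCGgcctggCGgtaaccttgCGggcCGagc
GENCODE and RefSeq place the start of Hoxd4 far apart. GENCODE starts Hoxd4 at 74711929, only 2 bp from Hoxd3, so the GENCODE promoter windows of the 2 genes are nearly the same bases, while RefSeq starts it at 74721978, at the sequence shown, which lies outside that shared window. The second set shows the middle 300 bases of the 2 stretches of the cluster that were free of peaks in the most lists. Counting the lists of either mark, these were 12 of 16 in each case. The first stretch, chr2:74701541-74702035, lies between Hoxd9 and Hoxd8 in no annotated gene, and the second, chr2:74729657-74730104, lies inside Hoxd3 just beyond the end of Hoxd4.
Stretch between Hoxd9 and Hoxd8, chr2:74701639-74701938, plus strand: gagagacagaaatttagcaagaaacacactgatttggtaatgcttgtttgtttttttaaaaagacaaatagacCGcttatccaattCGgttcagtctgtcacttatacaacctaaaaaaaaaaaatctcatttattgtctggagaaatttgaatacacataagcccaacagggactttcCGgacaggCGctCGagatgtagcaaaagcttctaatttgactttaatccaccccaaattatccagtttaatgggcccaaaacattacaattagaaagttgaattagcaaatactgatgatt
Stretch inside Hoxd3, chr2:74729731-74730030, plus strand: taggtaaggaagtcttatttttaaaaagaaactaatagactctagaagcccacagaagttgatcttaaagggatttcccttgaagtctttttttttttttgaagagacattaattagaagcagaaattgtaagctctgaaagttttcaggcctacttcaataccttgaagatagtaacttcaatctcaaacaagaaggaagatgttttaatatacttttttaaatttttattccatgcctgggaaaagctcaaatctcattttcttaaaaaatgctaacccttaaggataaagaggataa
The third set is the sequence around the ends of the H3K27me3 domain in HSPCs, centred on the median end over the 4 lists.
Edge on the Evx2 side, chr2:74641731-74642030, plus strand: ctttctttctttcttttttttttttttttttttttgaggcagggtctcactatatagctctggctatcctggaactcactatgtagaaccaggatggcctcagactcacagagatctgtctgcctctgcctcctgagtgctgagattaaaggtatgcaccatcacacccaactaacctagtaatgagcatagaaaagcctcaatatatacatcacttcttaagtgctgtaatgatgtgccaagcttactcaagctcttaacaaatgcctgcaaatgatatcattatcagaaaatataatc
Edge on the Mtx2 side, chr2:74773606-74773905, plus strand: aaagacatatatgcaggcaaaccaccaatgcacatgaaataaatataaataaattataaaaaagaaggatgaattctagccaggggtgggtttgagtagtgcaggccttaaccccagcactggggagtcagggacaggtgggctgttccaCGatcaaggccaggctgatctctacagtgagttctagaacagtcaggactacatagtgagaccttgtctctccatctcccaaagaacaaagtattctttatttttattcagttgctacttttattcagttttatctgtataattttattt
The cluster also holds Mir10b, the gene of a microRNA that lies within Hoxd4 and Hoxd3 on the same strand, whose mature sequence is shown with its seed, bases 2 to 8, in capitals.
mmu-miR-10b-5p: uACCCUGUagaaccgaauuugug

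Both marks covered most of the cluster in mouse cells, and H3K27me3 covered more of it than H2AK119ub. Under H3K27me3 the covered share of the span was 95.2% and 98.2% in WT mES cells, 95.7% and 94.9% in KO mES cells, 100% and 99.5% in WT HSPCs, and 100% in both KO HSPC lists. Under H2AK119ub it was 78.1% and 80.9% in WT mES cells, 87.6% and 88.8% in KO mES cells, 70.8% and 56.3% in WT HSPCs, and 79.2% and 78.1% in KO HSPCs. Every H3K27me3 list thus lay above every H2AK119ub list of the same cell type. The mean difference, H2AK119ub minus H3K27me3, was -12.1 percentage points for mES lists and -28.8 for HSPC lists, and each had the smallest p that a two-sided exact permutation test within genotype over 36 arrangements can give, p = 0.0556 (Benjamini-Hochberg adjusted p = 0.0864 over 14 tests). The same exact permutation test gave p = 0.0556 for the difference between cell types, HSPC minus mES, which was 3.86 percentage points for H3K27me3 and -12.8 for H2AK119ub. For H2AK119ub the 4 HSPC lists (56.3% to 79.2%) overlapped the 4 mES lists (78.1% to 88.8%) slightly. These HSPC lists were all shorter over the genome, at 138.8 to 177.0 Mb against 235.1 to 259.9 Mb in mES cells. The part of list length in the H2AK119ub difference was not tested. A comparison of 36 arrangements cannot pass 0.05.

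**Figure D1:**
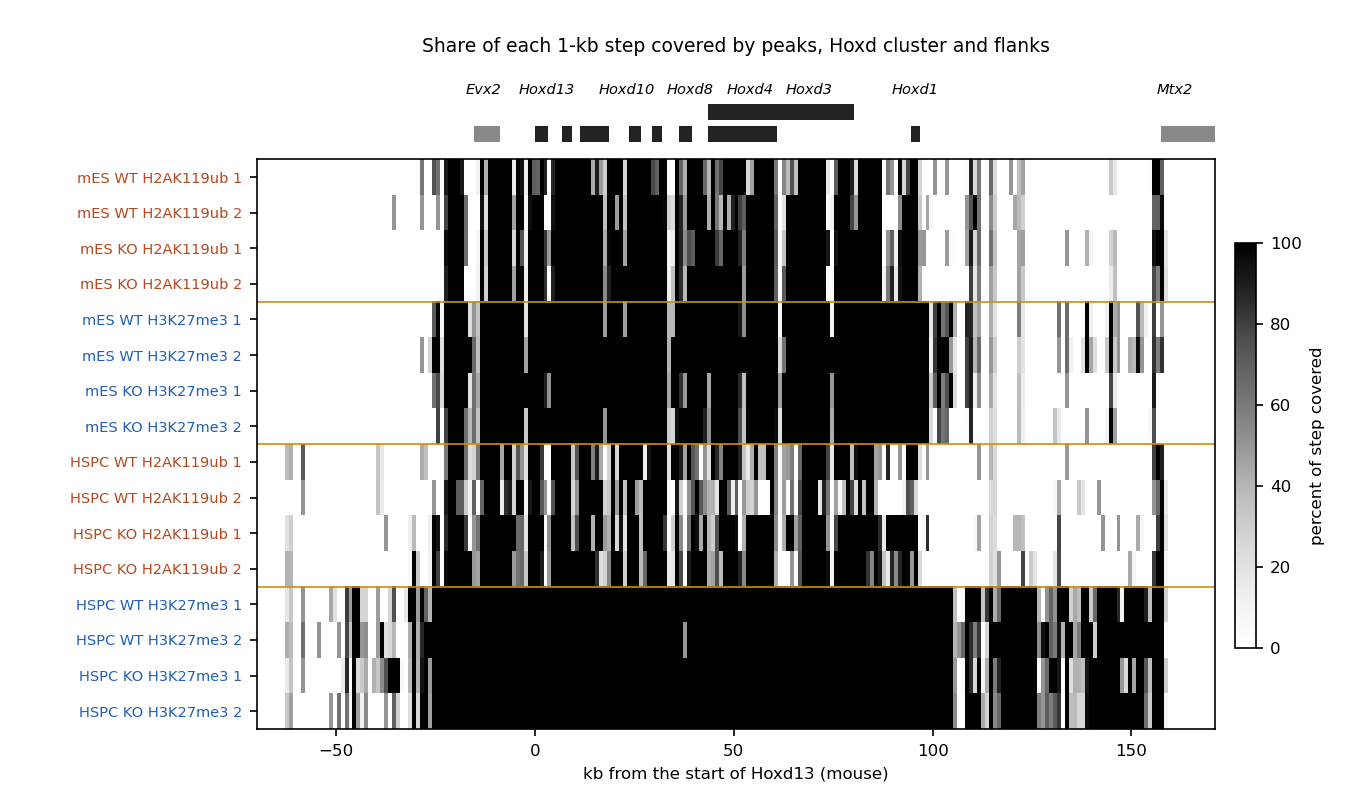
Percent of each 1-kb step covered by peaks (white 0, black 100) from 70 kb before the start of Hoxd13 to the body of Mtx2 in the 16 mouse lists, 1 row per library, with the genes drawn above as bars. The 4 HSPC H3K27me3 rows are black across the cluster and go on in patches to the start of Mtx2, while the H2AK119ub rows are broken by white gaps.

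**Figure D2:**
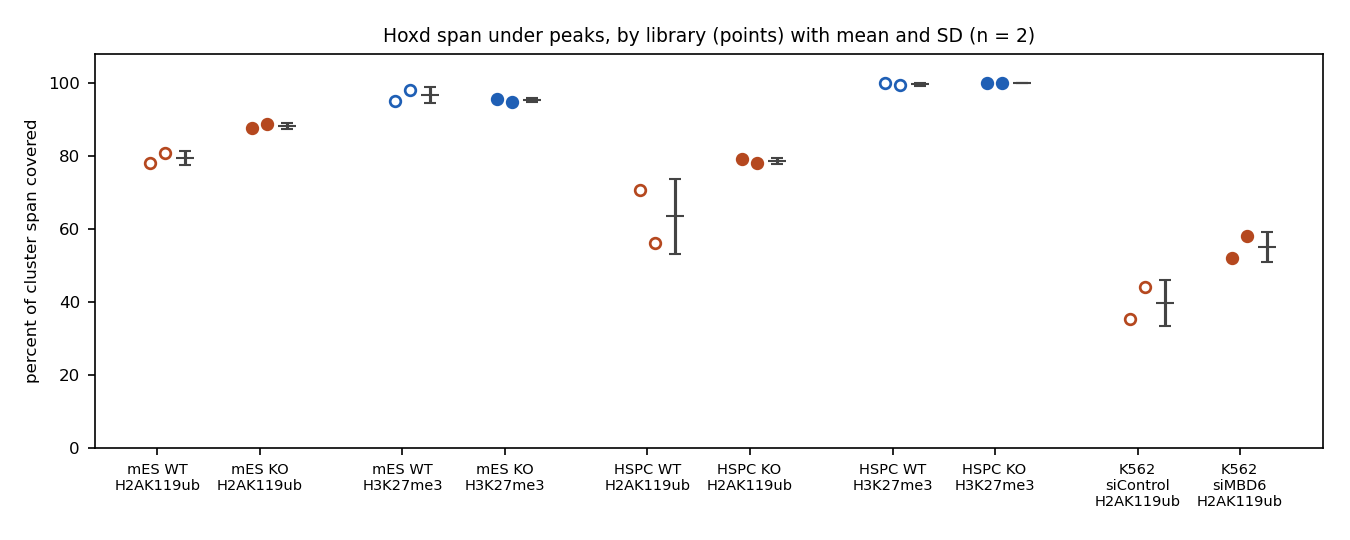
Percent of the Hoxd span covered by peaks in each of the 20 lists (points, filled for KO and siMBD6), with the mean and SD of each group of 2. H2AK119ub points of KO or siMBD6 lie above those of their controls in all 3 cell types, and H3K27me3 points lie between 94.9% and 100%.

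The form of the H3K27me3 domain differed between the cell types. In 3 of the 4 HSPC lists 1 unbroken peak held all 9 genes and Evx2. That peak was 131766 bp long in WT replicate 1, 131866 bp in KO replicate 1 and 132001 bp in KO replicate 2, and it ranked 4th, 5th and 4th by width in its list. In WT replicate 2 the domain was split by a gap of 514 bp in Hoxd8, close to the smallest gap the lists can hold, into peaks of which the wider was 67.9 kb. On the Evx2 side the unbroken peaks began within 85 bp of each other, at 74641849 to 74641934, and the split one began at 74639440. On the Mtx2 side the domain ended at 74773676 to 74773849 in all 4 lists, a spread of 173 bp, or 8.53 to 8.71 kb beyond Hoxd1. The printed 300 bases at these ends are 57.3% and 69.7% repeats (soft-masked), against 14.4% of the cluster span, and hold 0 and 1 CG. In mES cells the same stretch was divided among 3 to 8 peaks that touched the span, the widest 24.3 to 36.8 kb long.

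H2AK119ub was called as a row of shorter peaks in every list. The number of peaks touching the span was 21 and 16 in WT mES cells, 14 and 11 in KO mES cells, 25 and 29 in WT HSPCs, and 18 and 20 in KO HSPCs. The widest of them measured 10.3 to 15.0 kb (mES) and 6.78 to 12.3 kb (HSPC). In both cell types the KO lists held fewer H2AK119ub peaks in the cluster than the WT lists, and their widest peak was wider. In all, 43.3% of the span lay under H2AK119ub in all 8 mouse lists and 5.45% in none, while 91.8% lay under H3K27me3 in all 8. The bases without H2AK119ub in any list fell into 8 stretches of 341 to 1261 bp. The longest lay across the end of Hoxd4 inside Hoxd3, and the next, of 875 bp, lay further along Hoxd3. Of these 8 stretches 7 lay wholly under H3K27me3 in all 4 HSPC lists, and the other, in Hoxd8, in 3 of 4.

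Base composition followed the cover of H2AK119ub as a description. The 41971 bases under the mark in all 8 lists had 54.5% GC and 38.5 CG per kb, and those under it in 1 to 7 lists had 46.0% GC and 19.4 CG per kb. The 5282 bases under it in no list had 40.8% GC and 25.7 CG per kb, so the CG density was not in the same order as GC. The whole span had 28.0 CG per kb, against 8.53 on chromosome 2. The stretch between Hoxd9 and Hoxd8 printed above was 32.3% GC with 5 CG in 495 bp, and the one inside Hoxd3 was 36.2% GC with 0 CG in 448 bp. Both were free of peaks in all 4 H2AK119ub lists and all 4 H3K27me3 lists of mES cells and in all 4 H2AK119ub lists of HSPCs, and both lay under H3K27me3 in the 4 HSPC lists.

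Beyond the cluster the covered length differed most for H3K27me3 in HSPCs. Between Hoxd1 and Mtx2 it covered 80.3% and 87.7% in WT HSPCs and 77.4% and 81.0% in KO HSPCs, against 29.2% and 33.5% in WT mES cells and 20.7% and 16.02% in the KO mES lists. H2AK119ub covered 6.04% to 10.98% of that stretch in HSPCs and 9.05% to 15.3% in mES cells. The same held in the gene deserts, where H3K27me3 covered 34.0% to 43.0% from Atp5g3 to Lnpk and 35.1% to 39.4% from Mtx2 to Hnrnpa3 in HSPCs, against 3.05% to 5.74% and 5.27% to 12.97% in mES cells. HSPC H3K27me3 lists were not longer in all, at 164.6 to 200.9 Mb against 149.4 to 232.5 Mb in mES cells. Between Lnpk and Evx2 the HSPC lists covered 28.7% to 33.9% and the mES lists 10.6% to 15.95%. These stretches were described and not tested.

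With peaks joined across gaps of up to 3 kb, the H3K27me3 domain of HSPCs ended 61.4 and 61.2 kb beyond Hoxd1 in WT and 61.5 and 61.2 kb in KO, which is just past the start of Mtx2. In mES cells it ended 14.6 and 8.35 kb beyond Hoxd1 in WT and 14.7 and 7.17 kb in KO. The 2 cell types did not overlap, and the mean difference of 50.1 kb had exact permutation p = 0.0556 over 36 arrangements. The body of Mtx2 itself was covered at 1.02% to 1.51% in HSPCs. Its promoter, printed above with 19 CG in 300 bases, carried peaks of both marks in HSPCs. Cover there was 76.9% to 89.8% for H3K27me3 and 70.2% to 85.7% for H2AK119ub. In mES cells the Mtx2 promoter was at 60.4% to 85.8% for H2AK119ub. For H3K27me3 it was at 25.04% and 67.1% in WT mES cells and at 0% in the KO mES lists. Promoters of the widely expressed Atp5g3 and Hnrnpa3 also carried H3K27me3 peaks in HSPC lists, at 31.3% to 63.4% and 67.0% to 93.2%, and none in mES lists, and the part of such promoter peaks in the edge was not tested. With joining across 1 kb only, the HSPC domain ended 8.53 to 15.0 kb beyond Hoxd1 and the mES domain at 2.34 and -35.6 kb in WT and 8.41 and 2.41 kb in KO, where the negative value lies inside the cluster. The mean difference was then 15.8 kb (9.82 kb with joining across 10 kb), and the nearest lists of the 2 cell types, at 8.41 and 8.53 kb, were close to each other.

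On the Evx2 side the domain reached 32.2 and 31.4 kb beyond Hoxd13 in WT HSPCs and 48.2 and 31.2 kb in KO HSPCs under H3K27me3, and 25.7, 28.9, 25.9 and 24.8 kb in the mES lists. The mean difference, HSPC minus mES, was 9.40 kb, and 5.17 kb without KO HSPC replicate 1. For H2AK119ub it reached 22.6 to 26.1 kb in HSPCs and 13.9 to 14.1 kb in mES cells, a mean difference of 11.1 kb. Both had exact permutation p = 0.0556. The H2AK119ub difference turned over with the joining distance, to -42.2 kb when gaps of up to 1 kb were joined, and to -2.62 kb when peaks under 1 kb were left out. On the Mtx2 side the H2AK119ub domain ended between -9.84 and 0.68 kb from the end of Hoxd1 in mES cells, where negative values lie inside the cluster, and between -41.3 and 2.02 kb in HSPCs, without a gap between the cell types. H2AK119ub edges are therefore given as values of this joining rule only.

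**Figure D3:**
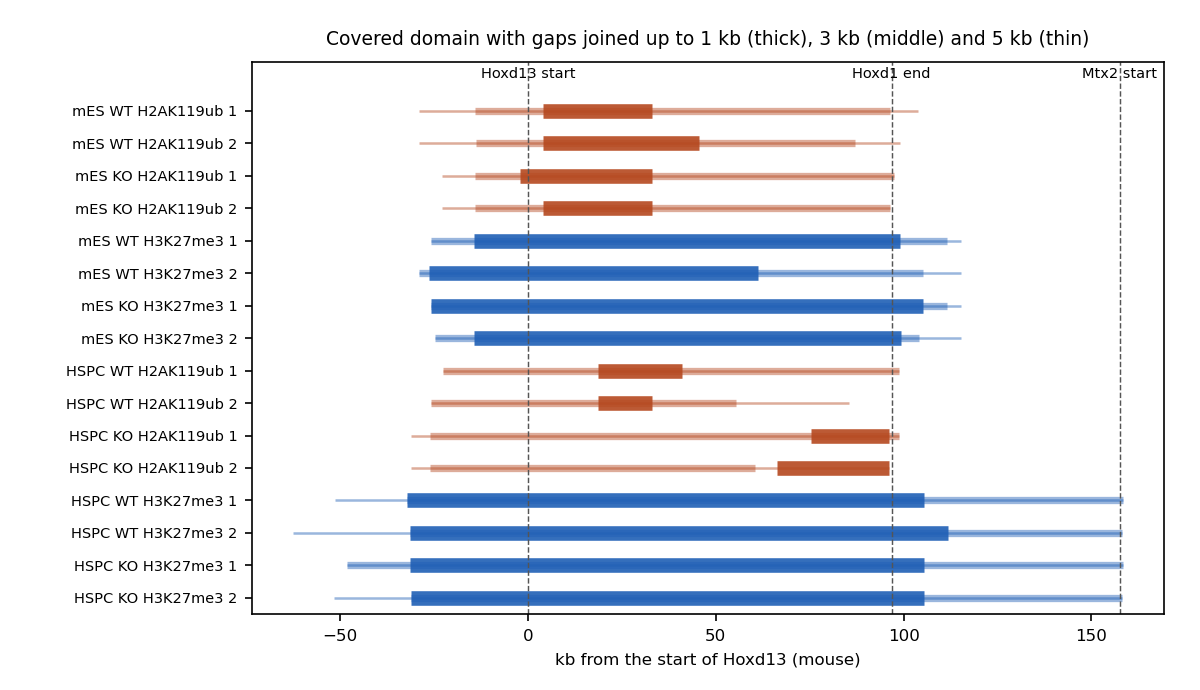
Extent of the covered domain in each of the 16 mouse lists in kb from the start of Hoxd13, with gaps of up to 1 kb (thick), 3 kb (middle) and 5 kb (thin line) joined; dashed lines mark the start of Hoxd13, the end of Hoxd1 and the start of Mtx2. H3K27me3 domains (blue) of HSPCs end at the start of Mtx2 with 3-kb or 5-kb joining, and H2AK119ub domains (orange) change most with the joining distance.

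Among the posterior genes Hoxd12, Hoxd10 and Hoxd9 were the most fully covered. Hoxd12, which acts in the distal limb, was covered at 95.02% to 100% by H2AK119ub over the 8 mouse lists and at 100% by H3K27me3 in all 8. Hoxd9 was fully covered by both marks in 15 of 16 mouse lists, the exception being H2AK119ub in WT mES replicate 1 at 78.5%. Hoxd10 was fully covered under both marks in mES cells, and at 100% and 64.7% in WT HSPCs and 86.5% and 86.8% in KO HSPCs under H2AK119ub. Hoxd13, which acts in the digits, was covered less over its length by H2AK119ub. It was at 77.9% and 60.5% in WT mES cells, 85.7% and 86.5% in KO mES cells, and 55.5% to 67.5% in HSPCs. Its promoter was nevertheless fully covered by H2AK119ub in 7 of 8 lists. Hoxd11 ranged from 62.4% to 92.3% under H2AK119ub.

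Hoxd8 in the middle of the cluster had the lowest H2AK119ub value of any member in mouse. Under H2AK119ub it was covered at 72.9% and 80.6% in WT mES cells, 66.4% and 77.1% in KO mES cells, 80.7% and 25.8% in WT HSPCs and 45.1% and 60.3% in KO HSPCs, so replicates differed by more than the groups did. Under H3K27me3 it was at 100% in 6 of 8 lists, at 79.6% in KO mES replicate 1 and at 84.5% in WT HSPC replicate 2.

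Of the anterior genes, Hoxd3 is the longest, at 36516 bp, and contains the whole of Hoxd4 in the mouse annotation, so their values are not independent. The bodies of Hoxd4 and Hoxd3 were covered by H2AK119ub at 85.3% to 96.1% and 79.2% to 89.0% in mES cells and at 43.4% to 86.0% and 48.6% to 80.2% in HSPCs. Their shared GENCODE promoter window was covered by H2AK119ub at 52.6% and 71.0% in WT mES cells, 100% in both KO mES lists, and 44.6% to 60.2% in HSPCs. By H3K27me3 it was fully covered in WT mES cells and in all HSPC lists, and at 72.6% and 70.02% in KO mES cells. Hoxd1 was fully covered by H3K27me3 in all 8 mouse lists, and by H2AK119ub at 73.3% to 84.2% over the mES lists against 26.7% to 72.5% over the HSPC lists, which do not overlap.

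The promoter sequences differed in CG content. The 300 bases of Hoxd12 hold 13 CG, those of Hoxd10 hold 22, those of Hoxd3 hold 20 and those at the RefSeq start of Hoxd4 hold 4. As many CG as in Hoxd10 or more are found in 23.1% of the 32851 promoters in the same RefSeq table, and as many as in Hoxd4 or more in 68.6%, while the median is 7. Over the 10 promoter entries of the members the count ran from 4 in Hoxd4 and in 1 entry of Hoxd11 to 37 in Hoxd13. The letters TATAAA, searched on both strands, are in the printed promoters of Hoxd4 and Evx2 and in 13.6% of all promoters. The letters CCAAT are in those of Hoxd4, Hoxd3, Hoxd12 and Hoxd10 and in 37.4% of all. A loose form of the core of the CTCF motif is in none of the printed promoters or edges and in 2.43% of all promoters. These are matches of letters only.

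A member was called when the covered share of every list in 1 group lay above that of every list in the other. In mES cells 4 of 9 members (Hoxd13, Hoxd11, Hoxd3 and Hoxd1) had all 4 H3K27me3 lists above all 4 H2AK119ub lists over the gene, and 0 the reverse, where 7.67% of all protein-coding genes were called in the first direction and 38.5% in the second. In HSPCs 6 of 9 (Hoxd13, Hoxd11, Hoxd8, Hoxd4, Hoxd3 and Hoxd1) were called with H3K27me3 higher against 13.4% of all genes, and 0 the reverse against 40.8%. Between cell types, Hoxd1 was lower in HSPCs under H2AK119ub (1 of 9, background 20.5%) and Hoxd3 higher in HSPCs under H3K27me3 (1 of 9, background 27.1%), and 0 members were called in the other directions (20.9% and 17.3%). At promoters 0 of 9 were called between cell types, where 8.58% of genes were lower and 15.6% higher in HSPCs under H2AK119ub, and 8.7% lower and 22.8% higher under H3K27me3. Between marks at promoters, 0 of 9 were called in mES cells (5.7% with H3K27me3 higher and 26.4% with it lower over all genes), and 3 of 9 in HSPCs, where Hoxd8, Hoxd4 and Hoxd3 had H3K27me3 higher (9.87%) and 0 had it lower (24.1%). Members at 100% in both groups cannot be called, so the counts between cell types are bounded by how full the cover already was.

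**Figure D4:**
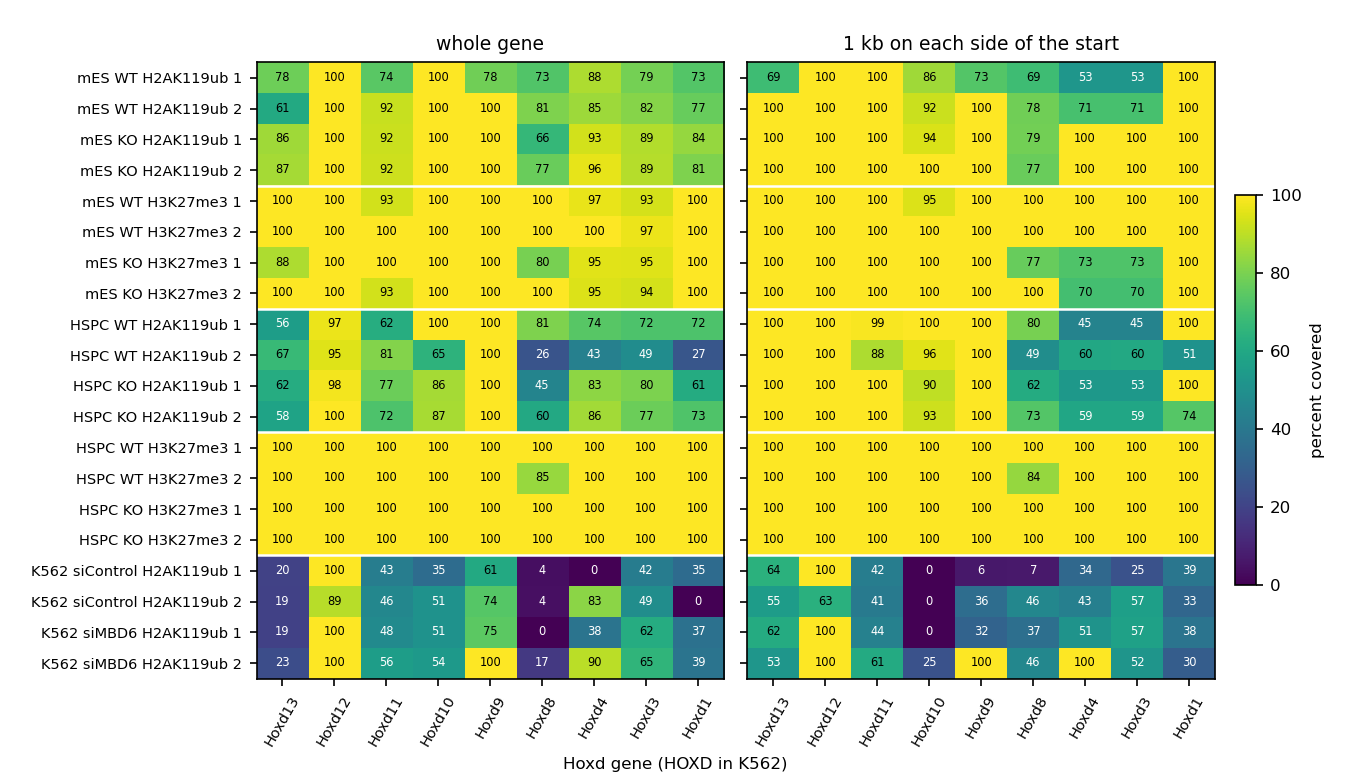
Percent of each Hoxd gene (left) and of the 2-kb window at its GENCODE start (right) covered by peaks in each of the 20 lists, genes in cluster order, with the rounded value in each cell. Hoxd12 lies at 95.02% or above in all mouse rows, Hoxd8 is as low as 25.8% under H2AK119ub in HSPCs, and the HOXD13 and HOXD8 genes lie at 23.4% or below in K562.

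Loss of Tet2 went with more of the cluster under H2AK119ub peaks in both mouse cell types. In mES cells the span covered was 79.5% ± 1.99 (SD, n = 2) in WT and 88.2% ± 0.809 (SD, n = 2) in KO, a difference of 8.66 percentage points. In HSPCs it was 63.5% ± 10.3 (SD, n = 2) in WT and 78.6% ± 0.763 (SD, n = 2) in KO, a difference of 15.1 percentage points. In both cell types the KO lists lay above the WT lists, and each exact permutation p was 0.333, the smallest that 2 against 2 allows (adjusted p = 0.909 over 15 tests). Pooled over both cell types the difference was 11.9 percentage points with exact permutation p = 0.0556, the smallest for 36 arrangements (adjusted p = 0.0864). The effects in HSPCs and mES cells differed by 6.43 percentage points, with exact permutation p = 0.722. Without WT HSPC replicate 2, whose list was the shortest of its mark in mouse at 112734 peaks and 138.8 Mb, the HSPC difference was 7.84 percentage points. Over the genome the H2AK119ub lists covered 168.5 and 177.0 Mb in KO HSPCs against 171.2 and 138.8 Mb in WT HSPCs, and 252.5 and 235.1 Mb in KO mES cells against 259.9 and 248.5 Mb in WT mES cells, and the part of list length in the differences was not tested. The Hoxa, Hoxb and Hoxc spans were also more covered by H2AK119ub in KO HSPCs, by 3.58, 9.76 and 13.2 percentage points. In mES cells their differences, KO minus WT, were 2.75, -0.338 and 4.18 percentage points. Whether Hoxd differs from these clusters in its response was not tested.

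In mES cells H2AK119ub was separated and higher in KO for 5 of 9 members, namely Hoxd13, Hoxd11, Hoxd4, Hoxd3 and Hoxd1, where 14.8% of all genes were called so, and for 0 members lower, where 15.4% were. The widest difference of means was that of Hoxd13, from 69.2% to 86.1%, and of these 5 it alone reached 10 percentage points, a rule that 3.23% of all genes met. Hoxd1 went from 73.3% and 76.6% to 84.2% and 80.6%. At promoters 3 of 9 were higher (Hoxd10, Hoxd4 and Hoxd3; background 10.2%) and 0 lower (8.91%), Hoxd4 and Hoxd3 being the same window. At that window the 2 marks went opposite ways, with H2AK119ub from 52.6% and 71.0% to 100% in both, and H3K27me3 from 100% in both to 72.6% and 70.02%. Whether the marks differ in their response at this window was not tested.

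H3K27me3 in mES cells covered 96.7% ± 2.15 (SD, n = 2) of the span in WT and 95.3% ± 0.52 (SD, n = 2) in KO, with overlapping groups and exact permutation p = 0.667. Hoxd4 was the 1 member of 9 called lower in KO over its length, at 96.8% and 100% in WT and 95.3% and 94.8% in KO, where 21.5% of all genes were called, and 0 were higher, where 5.37% were. The difference of Hoxd4 was below 10 percentage points, a rule that 7.45% of genes met. At promoters 2 of 9 were lower, Hoxd4 and Hoxd3 with their shared window, against 16% of all genes, and 0 higher (1.9%). In HSPCs H3K27me3 was saturated, at 99.7% ± 0.375 (SD, n = 2) in WT and 100% ± 0 (SD, n = 2) in KO. There 0 of 9 members were called in either direction (18.4% lower and 14.9% higher over all genes, and 8.79% and 9.68% at promoters). Members at the ceiling in WT could not be called higher in KO, whereas a lower call remained possible.

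In HSPCs H2AK119ub was higher in KO over the length of 3 of 9 members, Hoxd12, Hoxd4 and Hoxd3, against 19% of all genes, and lower in 0, against 9.4%. Hoxd4 was covered at 73.9% and 43.4% in WT and at 82.9% and 86.0% in KO. Hoxd3 was covered at 72.1% and 48.6% in WT and at 80.2% and 77.4% in KO. The RefSeq start of Hoxd4 was chosen as a window after the GENCODE values had been seen. There H2AK119ub covered 29.2% and 31.4% in WT HSPCs and 100% in both KO lists. The GENCODE window gave 44.6% and 60.1% in WT HSPCs and 53.3% and 59.1% in KO HSPCs. In mES cells the RefSeq window was at 36.4% and 100% in WT and 100% in both KO lists, which do not separate. The share of all genes separated at RefSeq starts was not computed. At GENCODE promoters in HSPCs 1 member was higher (Hoxd11, background 18.8%) and 1 lower (Hoxd10, background 5.05%). Neither reached 10 percentage points, which 16.6% of genes did upward and 3.83% downward.

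The noncoding genes of the anterior part showed similar values. Haglr, a long noncoding RNA gene between Hoxd3 and Hoxd1, was covered by H2AK119ub at 60.8% and 35.3% in WT HSPCs and 93.1% and 76.2% in KO HSPCs, and at 69.0% and 66.4% in mES cells of WT against 80.9% and 83.9% in those of KO. Hoxd3os1, which runs antisense across Hoxd8 and the start of Hoxd3, lay at 80.6% and 82.2% in the WT mES lists against 87.3% and 94.1% in the KO ones. The Mir10b gene, source of the microRNA printed above, was fully covered by H3K27me3 in all 8 mouse lists and by H2AK119ub in 7 of 8, and was at 0% in WT HSPC replicate 2. The wider anterior stretch from the end of Hoxd8 to Hoxd1 was covered by H2AK119ub at 66.4% and 46.1% in WT HSPCs and 82.2% and 77.5% in KO HSPCs. That from Hoxd13 to Hoxd8 was at 77.1% and 71.0% in WT HSPCs and 74.8% and 78.9% in KO HSPCs, which overlap. In mES cells both stretches lay higher in KO. The anterior one was at 76.3% and 78.3% in WT and 87.3% and 88.2% in KO, and the posterior one at 80.8% and 84.7% in WT and 88.1% and 89.6% in KO.

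In K562 cells the cluster was less covered by H2AK119ub than in most mouse lists. The siMBD6 lists covered more of it than the siControl lists. The lower cover was not confined to the cluster. Over all protein-coding genes the median share of a gene under H2AK119ub was 0.441% to 1.58% in K562. In the mouse lists it was 5.59% to 8.44%. The span covered was 35.4% and 44.2% in siControl and 52.2% and 58.1% in siMBD6, with means of 39.8% ± 6.23 (SD, n = 2) and 55.1% ± 4.14 (SD, n = 2). The difference of 15.4 percentage points had exact permutation p = 0.333, the smallest possible. The siMBD6 lists were also longer over the genome, at 177.5 and 190.2 Mb against 132.2 and 132.1 Mb, and the part of list length in the difference was not tested. The HOXA, HOXB and HOXC spans were also more covered in siMBD6, by 6.44 (HOXB) to 18.7 (HOXA) percentage points. Whether HOXD differs from these clusters in its response was not tested. Over the gene, 4 of 9 members were higher in siMBD6 (HOXD11, HOXD9, HOXD3 and HOXD1) and 0 lower, against 34.6% and 1.28% of all genes, so the count is close to the general one. HOXD9 was covered at 60.6% and 73.7% in siControl and 74.8% and 100% in siMBD6. HOXD3 was covered at 42.1% and 49.0% in siControl and 61.8% and 65.3% in siMBD6. At promoters HOXD11 and HOXD4 were higher (2 of 9, background 13.4%) and 0 lower (2.2%), HOXD4 at 34.0% and 43.1% against 51.3% and 100%.

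The pattern of members in K562 was uneven. HOXD12 was the most covered, at 100%, 89.3%, 100% and 100% over the 4 lists, HOXD13 lay at 19.4% to 23.4%, and HOXD8 at 0% to 16.7%. The HOXD10 promoter had no peak in 3 of 4 lists and a lone minimum-width peak in the other. HOXD4 varied between replicates from 0% to 82.5% in siControl and from 38.3% to 89.7% in siMBD6. In the human annotation HOXD4 lies within HOXD3 and HOXD11 shares 965 bp with HOXD10. The domain edge on the EVX2 side lay at -64.8 and -17.6 kb in siControl, inside the cluster, and at -40.6 and -4.51 kb in siMBD6, so replicates were further apart than the groups. The LNPK and MTX2 genes had no peak in any of the 4 lists, and the stretch between HOXD1 and MTX2 was covered at 2.09% to 3.17%.

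Among the 4 Hox clusters, Hoxd stood with Hoxc under H3K27me3 in HSPCs. There Hoxd was at 99.5% to 100%, Hoxc at 100% in all 4 lists, Hoxb at 85.6% to 90.9% and Hoxa at 71.1% to 74.4%. Over the 8 mouse H3K27me3 lists the Hoxd span was covered 11.1 percentage points more than the mean of Hoxa, Hoxb and Hoxc, higher in 8 of 8 lists, with exact sign-flip permutation p = 0.00781, the smallest possible (adjusted p = 0.0864). The p concerns how steadily this difference recurs over lists of the same spans, and not the spread between clusters. Under H2AK119ub the difference was 3.08 percentage points with exact permutation p = 0.133. The Hoxb span, at 173.9 kb, is the longest of the 4 and includes the stretch before Hoxb13. In mES lists H3K27me3 covered 66.2% to 79.1% of the Hoxb span and 94.9% to 98.2% of the Hoxd span. Hoxa was at 92.1% to 97.3% there and Hoxc at 87.3% to 96.8%. The mean over genes was higher for Hoxb than for Hoxd in each mES list, at 99.2% to 100% against 95.3% to 99.7%. The widest H3K27me3 peak in the Hoxc cluster of HSPCs was 281756 to 284845 bp, longer than that of Hoxd, while in mES cells the widest peak in Hoxd was shorter than that in each of the other 3 clusters, in all 8 lists.

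**Figure D5:**
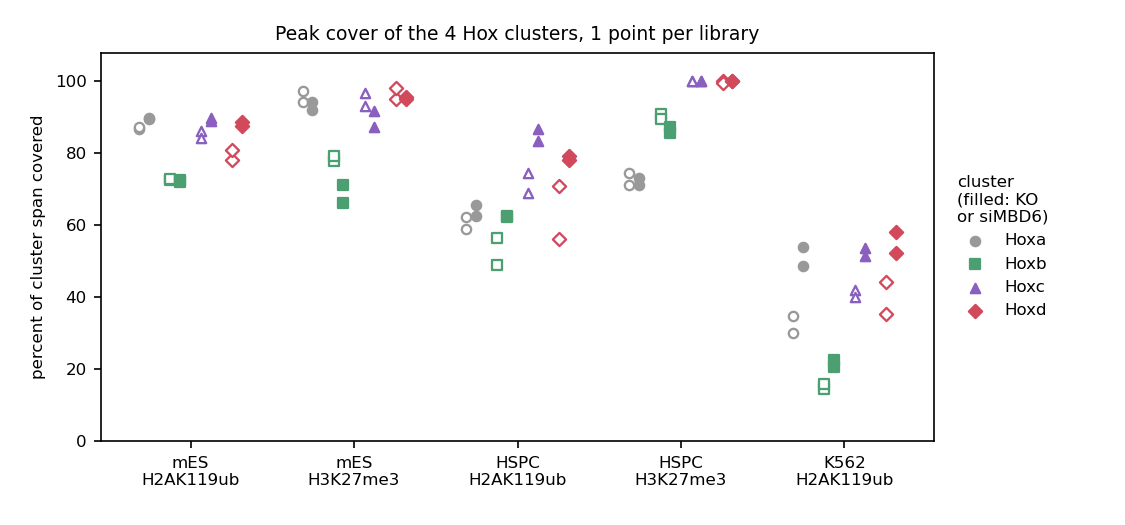
Percent of the span of each of the 4 Hox clusters covered by peaks, 1 point per library (open for WT and siControl, filled for KO and siMBD6), for each cell type and mark. Hoxd (diamonds) and Hoxc (triangles) are at or near 100% under H3K27me3 in HSPCs, where Hoxa (circles) lies between 71.1% and 74.4%.

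Over all protein-coding genes the median share of a gene under H2AK119ub was 5.59% to 8.44% in the mouse lists, and the median over the 9 members was above that of 86.5% to 93.5% of genes in each list. Outside the Hox clusters, the 5 genes whose cover over the 16 mouse lists lay nearest to the mean of the 9 members, by mean absolute difference, were En1, Zdhhc22, Pcdh8, Npas4 and Fzd1, at 3.10 to 3.38 percentage points. En1, a homeobox gene of the midbrain and limb, was covered at 82.1% to 88.6% by H2AK119ub in mES cells and 59.9% to 88.6% in HSPCs, and at 100% by H3K27me3 in all 8 lists.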

How the data were processed

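Each of the 20 libraries gave 1 list of peak positions in base pairs. Reads had been trimmed by the authors (Trimmomatic 0.39) and, according to the methods text, they aligned them to mm10 or hg38 with a Drosophila spike-in (Bowtie2 2.4.1), removed duplicates and called broad peaks with MACS2, while the submitters' processing notes name HOMER 4.9 and not MACS2. The deposited lists hold no score or read count, so depth is unknown, and no spike-in scaling or filter across replicates was applied to them here. From them the percent of bases under peaks was computed (Python 3.11.15, numpy 2.4.6) over the GENCODE span of each gene, its start with 1 kb on each side, and the cluster. The covered domain was the run holding most of the cluster after joining gaps of up to 3 kb. Groups were compared by two-sided exact permutation over libraries, and Benjamini-Hochberg adjustment covered 15 single comparisons and 14 others separately. Scripts were tested on simulated peaks. All 9 members were named, with their neighbours and the 5 genes most alike. Members, lists and tests were chosen with earlier results of these data known. Alternatives were lists cut to equal peak number by file order, peaks of at least 1 kb, other joining distances, wider promoters, RefSeq starts, a 10-point rule, a replicate block and leaving out each library.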

Additional observations from a re-analysis of the deposited data

Results flagged for a closer look

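The promoter of Hoxd10, 1 of the posterior genes, went opposite ways with loss of Tet2 under H2AK119ub. In mES cells it was covered at 85.7% and 91.9% in WT and at 94.4% and 100% in KO, a difference, KO minus WT, of 8.42 percentage points. In HSPCs it was covered at 100% and 95.7% in WT and at 90.4% and 92.6% in KO, a difference of -6.40 percentage points. Both KO lists lay above both WT lists in mES cells and below them in HSPCs. With promoters of 2 kb on each side the HSPC groups overlapped, at 100% and 72.8% in WT and 78.4% and 82.4% in KO, and over the whole gene the HSPC difference was 4.27 percentage points. The difference between the cell types was not tested. This promoter was picked out from the members by a rule that looked for differences between cell types. Over all genes, 10.2% of promoters were called higher in KO mES cells and 5.05% lower in KO HSPCs. The share of all promoters called in opposite directions in both cell types was not computed. The result can therefore not be read as particular to Hoxd10.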

How the results depend on the processing

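The differences in the covered share of the span kept their direction with peaks of at least 1 kb and with 10 kb added on each side. Lists cut to equal peak number follow a file order of no stated meaning and do not equalise covered length, so they say nothing of stability. Leaving out single libraries turned the direction in 14 of 172 refits. Without single libraries the KO minus WT difference in span covered ranged from -2.92 to 0.112 percentage points for H3K27me3 in mES cells and from 0 to 0.531 in HSPCs. Pooled over both cell types it ranged from -1.33 to 0.188 for H3K27me3, and the difference of the H2AK119ub effects between cell types from -0.818 to 13.7. The edge on the Evx2 side ranged from -0.0155 to 0.139 kb for H2AK119ub in mES cells, -0.58 to 16.4 kb for H3K27me3 in HSPCs and -5.00 to 42.2 kb in K562. That on the Mtx2 side ranged from -4.32 to 3.20 kb for H3K27me3 in mES cells, -19.0 to 24.1 kb for H2AK119ub and -0.108 to 0.141 kb for H3K27me3 in HSPCs, and -12.2 to 29.5 kb in K562.

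Edges turned over with the joining distance, and the cause was not tested. On the Evx2 side KO minus WT became -6.06 kb at 5 kb and -9.43 kb at 10 kb for H2AK119ub in mES cells, -52.0 kb at 1 kb for H2AK119ub in HSPCs, and -0.492, -7.01 and -7.06 kb at 1, 5 and 10 kb for H3K27me3 in HSPCs, and siMBD6 minus siControl became -54.7 kb at 1 kb. On the Mtx2 side KO minus WT became -6.22, -4.49 and -12.9 kb at 1, 5 and 10 kb for H2AK119ub in mES cells, 22.03 kb at 1 kb for H3K27me3 in mES cells, and -3.08 kb at 1 kb and -24.0 kb with peaks of at least 1 kb for H3K27me3 in HSPCs, and siMBD6 minus siControl became -1.74 kb with peaks of at least 1 kb. HSPC minus mES for H2AK119ub became -2.62 kb with peaks of at least 1 kb and -42.2 kb at 1 kb on the Evx2 side, and 30.4 kb at 1 kb on the Mtx2 side. Joining at 10 kb and the RefSeq starts were chosen after seeing the data.

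Counts of members moved as follows. With the 10-point rule 1 member in place of 5 was higher under H2AK119ub in KO mES cells, 0 in place of 1 were lower under H3K27me3, and 0 promoters in place of 2 were called under H2AK119ub in HSPCs. With promoters of 2 kb on each side 6 in place of 3 were called under H2AK119ub in mES cells, 4 in place of 2 in HSPCs and 6 in place of 2 in K562, all of them higher in KO or siMBD6. The 4 in HSPCs were Hoxd13, Hoxd11, Hoxd4 and Hoxd3, so the lower call of Hoxd10 was lost. In K562 peaks of at least 1 kb gave 4. RefSeq starts gave 1 promoter in place of 2 for H3K27me3 in mES cells, and lists of equal peak number gave 1 member lower in place of 0 in K562. No share over all genes was computed for the wider promoters, wide peaks, RefSeq starts or lists of equal peak number. These counts can therefore not be read as particular to the cluster. In mouse the GENCODE windows of Hoxd4 and Hoxd3 are nearly the same bases and count as 2.

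With the replicate number as a replicate block, the differences were those given, such as 15.1 percentage points for H2AK119ub in HSPCs, with exact permutation p of 0.5 or 1, and no call was altered. Deviations of same-numbered libraries correlated at -0.0843 to 0.0102 over 1-kb steps, and 2 numbers cannot establish a pairing. The unknown depth and the 501-bp minimum width limit all values.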
